A study of Mus musculus with 4 samples.

Results

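The collagen genes are the 44 genes, of 28692 listed in the count matrices, whose symbol consists of Col, a number, the letter a and another number, which is how the α chains of the collagens are named. They were examined in stromal cells of untreated E12.5 mouse embryos of an EYFP strain on the C57BL/6 background, profiled by droplet single-cell RNA sequencing (10x Genomics). The small intestine (SI) and the large intestine including the cecum (LI) each contributed 2 libraries, from separate experiments on pooled embryos. The sort took live YFP+ Itgb1+ cells that were CD45-, Ter119-, CD31- and EpCAM-, a gate that removes leukocytes, erythroid cells, endothelium and epithelium. Some tissue labels name adult lamina propria, whereas the sample titles give E12.5 SI and LI, and the titles were followed. Values for single libraries are given below in the order LI replicate 1, LI replicate 2, SI replicate 1 and SI replicate 2.

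Collagens are secreted or membrane-bound proteins in which 3 α chains wind into a triple helix. Fibrillar collagens such as types I, III and V assemble into banded fibrils, FACITs (fibril-associated collagens with interrupted triple helices) sit on the fibril surface, type IV forms the sheet-like network of basement membranes, and type VI forms beaded filaments. In the developing gut the mesenchyme is the main source of the fibrillar and type IV chains, and the mesothelium that covers the serosal surface rests on a basement membrane of its own. By these structural types the members comprised 11 fibrillar, 9 basement membrane, 9 network and beaded filament, 9 FACIT, and 6 transmembrane and other collagens.

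All 44 gene identifiers were found in the GENCODE annotation of the mm10 build (GRCm38), on 15 chromosomes. Of the type IV chains, *Col4a1* and *Col4a2*, *Col4a3* and *Col4a4*, and *Col4a5* and *Col4a6* lie head to head as pairs. The clearest difference between regions, described further below, fell on *Col4a6* (chrX:141165403-141474076, minus strand) and *Col4a5* (chrX:141475385-141689234, plus strand), whose annotated ends are 1308 bases apart and whose RefSeq starts are 1342 bases apart. The sequences upstream of these starts are shown because both genes are read outward from the short interval between them. They are taken from RefSeq promoter windows of GRCm38.p6, cut before the first annotated exon, and are written 5′ to 3′ on the strand of the gene, with capitals marking a CCAAT box or a GC box (GGGCGG, on either strand, here as its complement CCGCCC).

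*Col4a6*, chrX:141474077-141474326, minus strand: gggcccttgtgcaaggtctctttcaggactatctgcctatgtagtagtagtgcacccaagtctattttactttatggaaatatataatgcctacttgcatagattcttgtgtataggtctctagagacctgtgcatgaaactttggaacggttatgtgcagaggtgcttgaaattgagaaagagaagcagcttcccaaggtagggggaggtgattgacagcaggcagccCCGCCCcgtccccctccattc

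*Col4a5*, chrX:141475169-141475384, plus strand: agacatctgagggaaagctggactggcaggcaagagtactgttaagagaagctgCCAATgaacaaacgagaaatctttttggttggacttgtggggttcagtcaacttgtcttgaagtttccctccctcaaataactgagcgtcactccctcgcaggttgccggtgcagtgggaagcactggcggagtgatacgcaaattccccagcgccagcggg

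The *Col4a6* window of 250 bases held 1 GC box, 21 bases before the RefSeq start, and neither a CCAAT box nor a TATA box (TATAAA). The *Col4a5* window of 216 bases held 1 CCAAT box, 196 bases before the start, and neither of the other motifs. Of 32851 promoter windows of 250 bases, 32.7% held a GC box, 33.9% a CCAAT box and 12.4% a TATA box on either strand. Of 38 starts of 35 members these were found in 22, 13 and 5. With all windows cut to the 216 bases of the *Col4a5* window, the shares were 27.9, 30.5 and 9.80%. A match describes letters only and is no evidence of binding.

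The 4 libraries held 5151 to 6881 cell barcodes and 31630548 to 62886525 unique molecular identifiers (UMIs, each counting 1 captured transcript), and 4603 to 6247 cells per library were kept. Pairs of libraries shared 8 to 15 barcodes. Depth was lowest in LI replicate 1, where kept cells had a median of 4220.5 UMIs, against 8382 to 8829 elsewhere. Cells were grouped by clustering from which the collagens and their pathway genes had been left out. Of the kept cells, 1314 were called mesothelial-like (*Upk3b* at 544 to 860 CPM, counts per 1000000 UMIs, in these cells), 1246 neural-like (with *Sox10* among the leading genes of their larger cluster) and 4607 smooth muscle-like. The other 14927 cells are a remainder, called other mesenchyme, in which the fibroblast (FB) marker *Pdgfra* stood at 73.3 to 117 CPM. This marker did not separate them from smooth muscle-like cells, where it was at 72.6 to 109 CPM. Among the libraries, the smooth muscle-like cells of LI replicate 1 stood apart, with *Acta2*, smooth muscle actin, at 552 CPM against 2860 to 5472 CPM in the others and *Myh11*, smooth muscle myosin, at 11.8 CPM against 155 to 695 CPM. *Acta2* was also present in other mesenchyme, at 239, 427, 667 and 1135 CPM. Within other mesenchyme, a cluster of 164 cells with few UMIs came nearly entirely from LI replicate 2 (150 cells), and a cluster of 159 cells led by *Pf4* and *Afp* came mostly from SI replicate 2 (119 cells). *Col18a1* and *Col14a1* were each among the 10 leading genes of a cluster although neither was used for clustering. The cell groups were defined on other genes of the same cells, so the tests between groups below measure the spread over libraries for groups drawn from these data.

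Collagen transcripts made up 0.182, 0.256, 0.155 and 0.241% of all UMIs in other mesenchyme and 0.179, 0.254, 0.156 and 0.219% in smooth muscle cells. They made up 0.217, 0.338, 0.289 and 0.405% in mesothelial cells and 0.0208, 0.0311, 0.0312 and 0.0368% in neural cells. In sums over a cell group, fewer cells with a transcript and less RNA per cell cannot be told apart. Mesothelial cells thus had the highest collagen share and neural cells the lowest in each of the 4 libraries, while other mesenchyme and smooth muscle cells lay close together. Fibrillar chains took 56.9 to 75.2% of the collagen UMIs across groups and libraries. Basement membrane chains took 15.8 to 23.6% in mesothelial cells and 8.9 to 14.4% in other mesenchyme, and network chains took 1.54 to 2.25% in mesothelial cells and 3.38 to 9.55% in other mesenchyme.

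**Figure D1:**
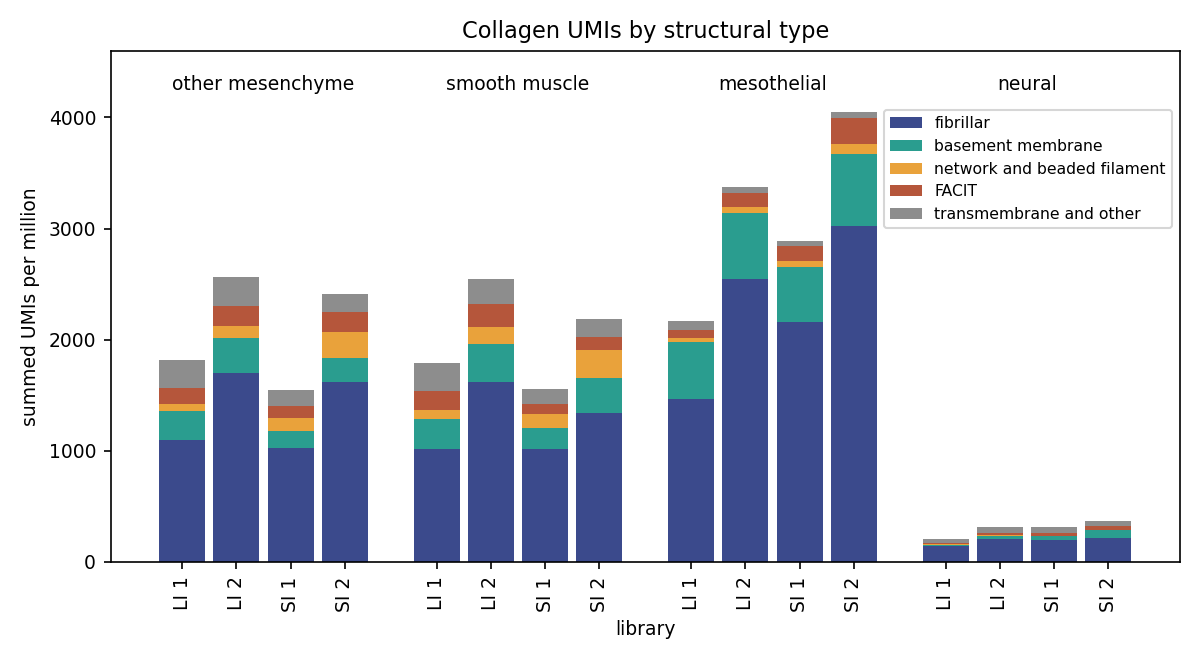
Stacked bars give the summed CPM (y axis) of the 44 collagen genes in each library (x axis), split by structural type, for the 4 cell groups. Fibrillar chains form the largest part of every bar, mesothelial bars are the tallest in each library and neural bars the shortest.

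At a mean of 20 CPM or more over the 4 libraries in at least 1 cell group, 21 members were expressed, and they are described first. UMIs count 1 end of each transcript and are not scaled by its length, so levels are compared between groups and libraries and not between genes.

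Of the fibrillar chains, *Col3a1*, the single chain of type III collagen, was found in other mesenchyme at 619.5, 956, 527 and 847 CPM and in mesothelial cells at 706, 1182, 955 and 1246 CPM. In neural cells it stood at 16.9, 15.97, 21.5 and 16.9 CPM, far below the other groups in every library. After each cell was thinned to 3000 UMIs, leaving out the shallower cells (43 to 804 of other mesenchyme, 16 to 97 smooth muscle, 3 to 78 mesothelial and 3 to 8 neural cells per library), 76.1 to 90.3% of other mesenchyme and 82.1 to 97.6% of mesothelial cells had a *Col3a1* UMI, against 3.83 to 6.31% of neural cells. Before thinning the neural share was 13.2 to 22.3%, at median depths of 11107.5 to 19853 UMIs per neural cell and 4117 to 8992 per cell of other mesenchyme, so a share of this size may come from free RNA and is not read as expression. The type I chains *Col1a1* and *Col1a2* form 1 heterotrimer. *Col1a1* stood at 81.0, 165, 156 and 283 CPM in other mesenchyme and at 103, 310.0, 217 and 334 CPM in smooth muscle cells. *Col1a2* stood at 125, 218, 98.3 and 151 CPM in other mesenchyme and at 61.1, 83.0, 58.1 and 54.7 CPM in smooth muscle cells. The number of *Col1a1* UMIs per *Col1a2* UMI was 0.649, 0.757, 1.58 and 1.88 in other mesenchyme and 1.69, 3.73, 3.74 and 6.10 in smooth muscle cells. It was thus higher in smooth muscle cells than in other mesenchyme within each library. In other mesenchyme it was higher in both SI libraries than in both LI libraries. The order was the opposite in mesothelial cells, at 1.74, 1.58, 1.03 and 1.35.

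*Col5a2*, a chain of type V collagen, which is built into type I fibrils and limits their diameter, was at 163, 215, 153 and 201 CPM in other mesenchyme and at 81.5, 139, 134 and 159 CPM in neural cells, where 18.9 to 39.5% of cells had a UMI after thinning. Its partner *Col5a1* was at 32.6, 50.9, 38.5 and 61.3 CPM in other mesenchyme and 8.02 to 15.0 CPM in neural cells. *Col11a1*, of the related type XI, was at 32.1 to 47.3 CPM in other mesenchyme and 32.7 to 88.6 CPM in mesothelial cells. *Col27a1*, a fibrillar collagen known from cartilage, was at 19.8 to 43.0 CPM in other mesenchyme and 86.8 to 171 CPM in mesothelial cells, with no overlap between these groups. The other 4 fibrillar members, *Col2a1*, *Col5a3*, *Col11a2* and *Col24a1*, had means of at most 2.93 CPM in any group.

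Of the basement membrane collagens, *Col4a1*, 1 of the 2 chains of the network found in all basement membranes, was at 125, 147, 99.4 and 140 CPM in other mesenchyme, with a mean of 128 CPM ± 21.1 (SD, n = 4). In smooth muscle cells its mean was 172 CPM ± 42.7, and in mesothelial cells 129 CPM ± 41.5. Each SD runs over the LI and SI libraries together, and the mesothelial values were 163, 166, 86.8 and 100.04 CPM. *Col4a2*, the other chain, had means of 55.7 CPM ± 12.1 in other mesenchyme, 70.5 CPM ± 20.03 in smooth muscle cells and 84.8 CPM ± 15.4 in mesothelial cells (SD, n = 4). The 3 groups overlapped for both genes. Both were at 1.47 to 4.78 CPM in neural cells. *Col4a5*, a further type IV chain, was at 39.9, 59.7, 3.92 and 7.86 CPM in other mesenchyme. It was at 21.7, 52.1, 28.9 and 69.5 CPM in mesothelial cells and 2.53 to 3.67 CPM in neural cells. *Col18a1*, the core protein of type XVIII collagen, a heparan sulfate proteoglycan of basement membranes from which endostatin is cleaved, was at 219.7, 259, 306 and 366 CPM in mesothelial cells. Its level was 17.6, 12.2, 9.53 and 6.83 CPM in other mesenchyme and 4.65, 18.8, 26.0 and 55.6 CPM in neural cells, so only the mesothelial group stood clear of both. After thinning, 49.6 to 67.3% of mesothelial cells had a *Col18a1* UMI (95% Wilson intervals between 45.1 and 73.9% over the libraries, for counting error only), against 1.74 to 4.88% of other mesenchyme.

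Of the type VI chains, which co-assemble as a trimer of *Col6a1*, *Col6a2* and a further chain, *Col6a1* was at 25.6, 44.7, 57.0 and 109 CPM in other mesenchyme and at 39.6, 64.3, 67.3 and 128 CPM in smooth muscle cells. *Col6a2* was at 16.9, 28.4, 27.3 and 63.0 CPM and *Col6a3* at 13.5, 32.4, 23.9 and 48.2 CPM in other mesenchyme. For each of these chains, neural cells had at most 1.69 CPM.

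Of the FACITs, *Col9a1* was at 22.5 to 41.2 CPM in other mesenchyme and 3.16 to 6.37 CPM in mesothelial cells. *Col9a2*, another chain of the same type IX molecule, was at 27.6 to 58.0 CPM in other mesenchyme and 30.1 to 62.4 CPM in mesothelial cells, so these chains differed in how the groups compared. *Col12a1* and *Col14a1* encode large FACITs of types XII and XIV. *Col12a1* was at 18.8, 35.3, 14.1 and 41.7 CPM in other mesenchyme, where replicate 2 of each region was higher than replicate 1 of either. The collagen share of all UMIs had this order there too. So did *Col1a1*, *Col1a2*, *Col3a1*, *Col5a1*, *Col5a2*, *Col27a1*, *Col4a1*, *Col4a2*, *Col6a2* and *Col6a3* of the members named above. *Col11a1*, *Col18a1*, *Col4a5*, *Col6a1*, *Col9a1* and *Col9a2* did not. *Col14a1* was at 27.0, 28.3, 31.6 and 69.1 CPM in other mesenchyme, with SI replicate 2 above the other libraries.

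Of the transmembrane and other collagens, *Col23a1*, a membrane-anchored collagen, was at 165, 176, 90.5 and 95.1 CPM in other mesenchyme and 191, 187, 106 and 143 CPM in smooth muscle cells, higher in both LI libraries than in both SI libraries in each group. *Col25a1*, a membrane collagen known from neurons, was at 21.1, 38.4, 39.9 and 35.6 CPM in neural cells, at 30.2, 26.0, 17.0 and 20.6 CPM in other mesenchyme and at 3.77 to 12.1 CPM in smooth muscle cells. *Col26a1* was at 22.4 to 38.9 CPM in other mesenchyme and 18.7 to 24.2 CPM in mesothelial cells.

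The other 23 members had means over the 4 libraries under 20 CPM in every group. The highest such mean was that of *Col13a1*, a transmembrane collagen of cell adhesion sites, at 15.96 CPM ± 2.34 (SD, n = 4) in other mesenchyme. *Col4a6*, a type IV chain, had means of 11.6 CPM in mesothelial cells and 11.49 CPM in other mesenchyme, where LI and SI differed (22.1 and 0.855 CPM). *Col9a3* had a mean of 10.5 CPM in neural cells and *Col16a1* one of 10.01 CPM in mesothelial cells. At the lower end, *Col10a1*, a chain of hypertrophic cartilage, had 2 UMIs in all libraries, *Col6a5* had 3, *Col28a1* had 7 and *Col20a1* had 10. In cells thinned to 3000 UMIs, 16 members had a UMI in 10% or more of the cells of at least 1 group, and 23 did before thinning.

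**Figure D2:**
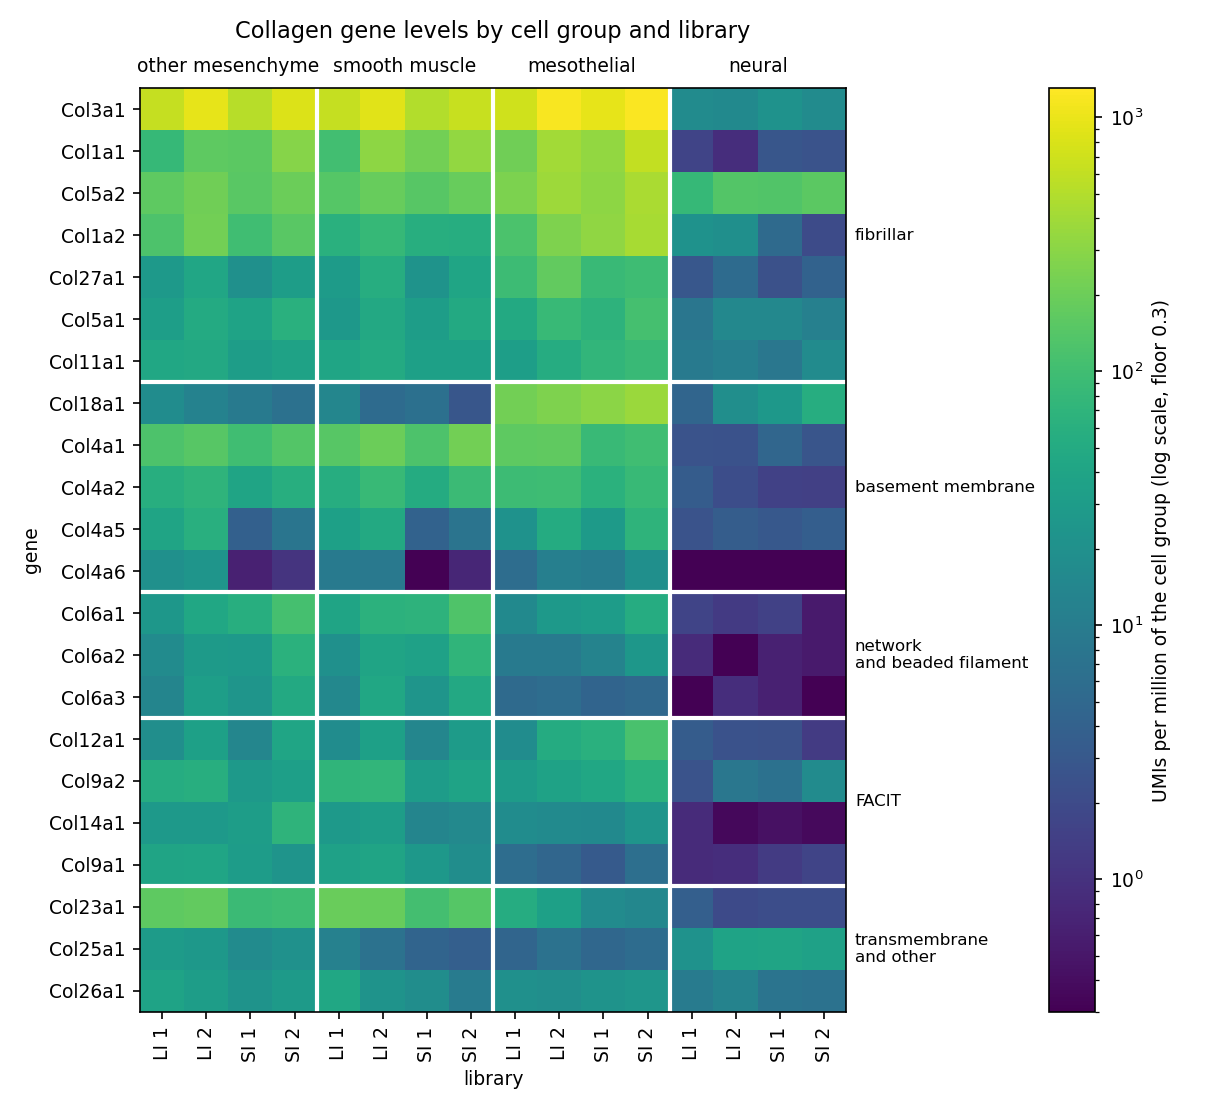
The heat map gives the level of each of the 21 higher members and of *Col4a6* (y axis, ordered by structural type) in each library and cell group (x axis), in CPM on a log color scale with values under 0.3 drawn at 0.3. *Col18a1* is highest in the mesothelial columns, and the neural columns are darker than the others for most genes, though not for *Col25a1*.

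To ask how collagen expression of the mesothelium differs from that of the mesenchyme, UMIs were summed per library and group and compared with edgeR's quasi-likelihood test with library as a block, where a member was called at a Benjamini-Hochberg adjusted p under 0.05. Of the 29 members that passed the filter on low counts, 12 were higher and 10 lower in mesothelial cells, against 40.5% of all genes tested called in either direction. All 7 called fibrillar chains were higher (of 8 tested, median log2 fold change 0.84, against -0.03 over all genes). Of the network chains, 4 of the 5 tested were lower, with 1 higher and a median of -1.20. The largest rise was in *Col18a1*, with a log2 fold change of 4.67 ± 0.43 (SE; adjusted p = 1.18e-06 by edgeR). *Col27a1* rose by 1.90 ± 0.10 (adjusted p = 3.96e-09, edgeR), *Col1a1* by 1.23 ± 0.13 and *Col3a1* by 0.50 ± 0.14 on the log2 scale. *Col12a1* rose by 1.13 ± 0.29 and *Col1a2* by 0.99 ± 0.36, but the *Col1a2* call was lost without LI replicate 2, SI replicate 1 or SI replicate 2 and with DESeq2 (adjusted p 0.0719, 0.267, 0.0864 and 0.146). *Col12a1* was no longer past the threshold without SI replicate 1 (adjusted p = 0.0877, edgeR), and neither was *Col3a1* (adjusted p = 0.056, edgeR). The *Col1a2* difference was unequal between regions. In LI, *Col1a2* was at 123 and 258 CPM in mesothelial cells and 125 and 218 CPM in other mesenchyme. In SI it was at 322 and 439.7 CPM in mesothelial cells and 98.3 and 151 CPM in other mesenchyme.

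Of the members that were lower in mesothelial cells, *Col9a1* fell by 2.74 ± 0.20 (log2, SE; adjusted p = 1.43e-07, edgeR), *Col6a3* by 2.33 ± 0.28, *Col23a1* by 2.09 ± 0.17 and *Col25a1* by 2.05 ± 0.32. Of the other type VI chains, *Col6a2* fell by 1.20 ± 0.18 and *Col6a1* by 0.82 ± 0.16. *Col14a1* fell by 1.04 ± 0.33 (adjusted p = 0.0202, edgeR), and this call was lost without SI replicate 1 (adjusted p = 0.0786, edgeR) and when clusters with a marker of another cell type were left out of other mesenchyme (log2 fold change -0.31). The members of low level that passed were *Col8a2* and *Col9a3*, which were higher, and *Col13a1*, *Col6a4* and *Col22a1*, which were lower. After thinning to 3000 UMIs per cell all of these but *Col13a1* fell to the filter on low counts and were not tested. The calls of *Col9a3* and of *Col11a1*, also higher, were each lost without LI replicate 2, SI replicate 1 or SI replicate 2. The basement membrane chains did not move together: *Col4a2* rose by 0.65 ± 0.13 (log2, adjusted p = 0.00127, edgeR). *Col4a1* had a log2 fold change of 0.04 ± 0.17, which averages over regions that differed. In LI, *Col4a1* was at 163 and 166 CPM in mesothelial cells, above the 125 and 147 CPM of other mesenchyme. In SI it was at 86.8 and 100.04 CPM in mesothelial cells, below the 99.4 and 140 CPM of other mesenchyme. Smooth muscle genes differed between these groups too, with the summed level of 11 contractile markers at 412 to 862 CPM in mesothelial cells and 903 to 2378 CPM in other mesenchyme, and epithelial markers (8 listed) summed to 90.5 to 212 CPM in mesothelial cells and 23.9 to 51.1 CPM in other mesenchyme, with *Cldn7* at 0 in mesothelial cells. Cartilage markers (7 listed, *Acan* and *Matn1* at 0 in mesothelial cells) summed to 159 to 197 CPM in mesothelial cells and 29.9 to 75.5 CPM in other mesenchyme. Endothelial markers (7) summed to 25.9 to 36.1 and 12.7 to 22.5 CPM, and pericyte markers (8, *Higd1b* and *Ndufa4l2* at 0 in mesothelial cells) to 15.03 to 31.8 and 38.7 to 134 CPM. Interstitial cell of Cajal markers (3) summed to 24.9 to 87.5 and 98.5 to 165 CPM, and neural markers (13) to 14.7 to 19.9 and 31.4 to 78.2 CPM. None of these lists overlapped between the groups, whereas the immune (6) and erythroid (9) lists did, and their part in the result was not tested.

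**Figure D3:**
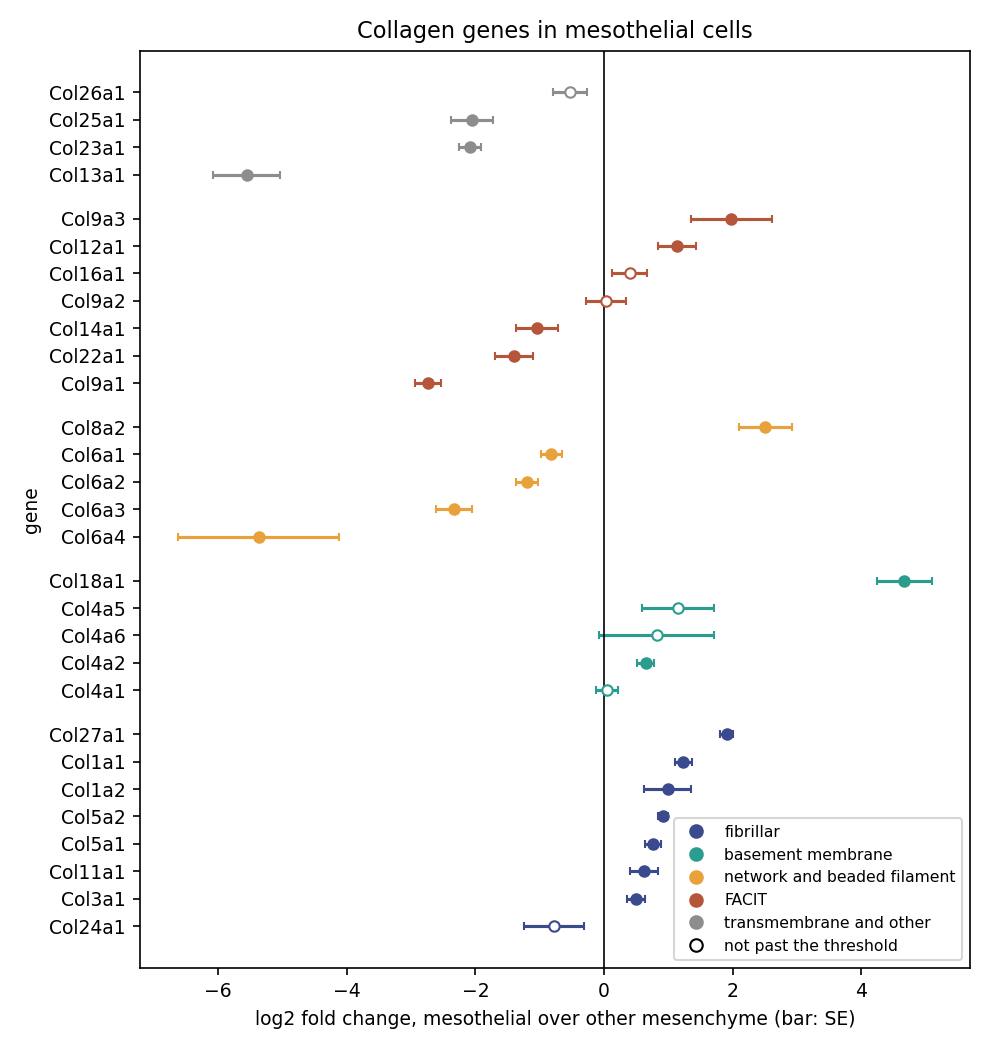
Points give the log2 fold change of mesothelial cells over other mesenchyme (x axis, bars are SE) for the 29 tested members (y axis), colored by structural type, with open points for members not past the threshold. *Col18a1* lies farthest to the right at 4.67, the called fibrillar chains lie to the right of 0, and *Col6a1*, *Col6a2* and *Col6a3* lie to the left.

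Between smooth muscle cells and other mesenchyme, 1 of 29 members tested was higher and 2 were lower in smooth muscle cells. This is 10.3% of the members, near the 7.95% of all genes called, and 14 members had an unadjusted p under 0.05. *Col25a1* fell by 1.90 ± 0.24 (log2, SE; adjusted p = 0.000203, edgeR), and by 2.07 without LI replicate 1, the library whose smooth muscle cells were low in contractile markers. *Col1a1* rose by 0.53 ± 0.13 (log2; adjusted p = 0.0179, edgeR) and by 0.57 without that library. The *Col1a1* call was lost without LI replicate 2 or SI replicate 1 and with DESeq2 (adjusted p 0.153, 0.0917 and 0.0657). *Col24a1*, a fibrillar chain of low level (0.786 to 1.60 CPM in smooth muscle cells), fell by 1.23 ± 0.35 with an adjusted p of 0.0455 (edgeR), but not past the threshold without LI replicate 1, SI replicate 1 or SI replicate 2 (adjusted p 0.0737, 0.115 and 0.491). Without LI replicate 2 it fell to the filter on low counts and was not tested. *Col1a2* had a log2 fold change of -1.15 ± 0.36 (adjusted p = 0.0713, edgeR), which became -1.19 with an adjusted p of 0.0439 without LI replicate 1. The number of calls was sensitive to how the groups were drawn, with 8 members called at a finer clustering, at which 1780 smooth muscle cells joined other mesenchyme, and 11 when clusters with a marker of another cell type were left out of the latter.

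Neural cells had the lowest collagen levels. All 29 tested members were called, 26 of them lower and 3 higher than in other mesenchyme, against 57.9% of all genes, and the median log2 fold change was -4.68 (-3.73 with the genes at 0 UMIs in neural cells set to the bounds given next). *Col4a6* had 0 UMIs in neural cells of all libraries, which allows up to 0.167 CPM (a floor of 3 counts over the group), so it was at least 61.7-fold lower, and *Col8a2*, also at 0, was at least 6.65-fold lower. *Col1a1* fell by 6.50 ± 0.23 (log2, SE; adjusted p = 1.21e-11, edgeR), *Col6a2* by 6.32 ± 0.30, *Col23a1* by 5.70 ± 0.23, *Col3a1* by 5.33 ± 0.19 and *Col4a1* by 5.30 ± 0.26. Beside these changes, the 11 contractile markers summed to 91.5 to 134 CPM in neural cells, against 903 to 2378 CPM in other mesenchyme, and the 7 endothelial markers, with *Tek* and *Tie1* at 0, to 43.7 to 60.8 CPM against 12.7 to 22.5 CPM. The mesothelial (14) and immune (6) lists were also lower in neural cells without overlap, at 7.89 to 12.2 CPM against 41.7 to 135 CPM and at 0 to 2.11 CPM against 2.59 to 9.10 CPM. The part of these and of free RNA in the low neural values was not tested, and across the alternative settings the *Col1a1* change ranged from -6.77 to -3.96. The calls of *Col4a5* and *Col4a6* were lost without LI replicate 2. *Col5a2*, whose smaller change was chosen for mention after its values were seen, fell by 0.49 ± 0.08. The 3 members that were higher in neural cells, likewise named after their values were seen, were *Col9a3*, *Col18a1* and *Col25a1*. *Col9a3*, the remaining type IX chain, was at 5.07, 6.10, 15.6 and 15.2 CPM in neural cells and at 0.454 to 1.06 CPM in other mesenchyme, a rise of 3.85 ± 0.46 on the log2 scale (adjusted p = 5.48e-06, edgeR). After thinning to 3000 UMIs it did not pass the filter on low counts and was not tested. *Col9a3* shares 234 exon bases with *Tcfl5* on the opposite strand, and its reads were not separated from those of *Tcfl5* here. *Col18a1* rose by 1.31 ± 0.45 (adjusted p = 0.0225, edgeR) but was lower in neural cells than in other mesenchyme in LI replicate 1, and its call was lost without LI replicate 2, SI replicate 1 or SI replicate 2 and with DESeq2. *Col25a1* rose by 0.64 ± 0.21 (adjusted p = 0.0169, edgeR), again with the opposite order in LI replicate 1, and its call was lost after thinning (adjusted p = 0.196, edgeR) and without LI replicate 2 or SI replicate 1. Among neural cells, *Col25a1* was at 23.6, 47.2, 50.6 and 47.1 CPM in the cluster led by *Foxd3* and *Sox10*. It was at 1.59 CPM over all libraries in that led by *Cartpt*, *Stmn2* and *Rtn1*. Over all libraries, *Col5a2* was at 166 CPM in the first of these clusters and 23.6 CPM in the second, and *Col18a1* at 36.3 and 5.84 CPM. *Col9a3* went the other way, at 10.1 and 15.1 CPM. All 3 comparisons between groups use the same sums of other mesenchyme.

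To ask whether the collagens differ along the length of the gut, SI and LI were compared within each group with 2 libraries per region. In other mesenchyme, 2 of 36 tested members were called, both lower in SI, against 3.19% of all genes, and both were the minor type IV chains that share the interval shown above. *Col4a6*, which was below the level at which members were to be named and was chosen after its values were seen, was at 20.4, 23.8, 0.648 and 1.06 CPM. Every LI value lay above every SI value, and the log2 fold change was -4.52 ± 0.27 (SE; adjusted p = 0.000702, edgeR). *Col4a5* was at 39.9, 59.7, 3.92 and 7.86 CPM, again without overlap, with a log2 fold change of -2.92 ± 0.34 (adjusted p = 0.00635, edgeR). After thinning, 10.2 and 16.6% of other mesenchyme in LI had a *Col4a5* UMI (95% Wilson intervals 9.22 to 11.2% and 15.3 to 17.9%), against 1.23 and 2.35% in SI (0.907 to 1.68% and 1.91 to 2.88%). Both calls were kept in all 15 alternative settings, with log2 fold changes of -4.90 to -4.24 for *Col4a6* and -3.48 to -2.53 for *Col4a5*. In the 4 settings that leave out a library, 1 region has a single library, which is assumed to vary like those of the other region, and the spread comes from the latter alone. The genes of the main type IV network did not show this difference, with log2 fold changes of -0.03 ± 0.20 for *Col4a1* and -0.21 ± 0.21 for *Col4a2*. Both *Col4a5* and *Col4a6* are on the X chromosome. Over all barcodes, *Xist*, which is transcribed in female cells, was at 256 and 828 CPM in LI and 260 and 565 CPM in SI. *Ddx3y*, on the Y chromosome, was at 58.4 and 39.6 CPM in LI and 55.3 and 44.9 CPM in SI. The levels of both overlapped between regions, and the part of the sex of the pools in the difference was not tested.

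The level of the minor type IV chains also differed among the clusters of other mesenchyme. In the cluster of 6287 cells led by *Igfbp5*, *Cdh13* and *Scx*, *Col4a6* was at 32.5, 35.9, 0.45 and 0.66 CPM. In the cluster of 2419 cells led by *Bmp3*, *Col14a1* and *Nrg1* it was at 9.98, 16.6, 0.33 and 1.02 CPM, and in that of 1734 cells led by *Anxa2*, *Tac2* and *Wnt4* at 8.36, 7.62, 2.20 and 1.98 CPM. The LI values were above the SI values in each of these 3 clusters. The share of the first cluster in other mesenchyme was larger in LI. Both chains were still called in a single random draw of equal numbers of cells of each larger cluster from every library. The part of cell composition in the regional difference was not tested. *Col14a1* varied in another way, standing at 39.6, 65.8, 83.0 and 218 CPM in the *Bmp3* cluster, of which it is a leading gene, and at 19.4 to 24.6 CPM in the *Igfbp5* cluster.

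In smooth muscle cells, 3 of 28 tested members were called, all lower in SI, against 1.46% of all genes. More were called with a replicate block in the fit, as given at the end. *Col6a1* (1.04 ± 0.34, log2 and SE, adjusted p = 0.255, edgeR) and *Col6a2* (0.96 ± 0.39, adjusted p = 0.388, edgeR) were higher in SI but not called. *Col4a6* was at 9.44, 8.998, 0.281 and 0.728 CPM (log2 fold change -3.93 ± 0.45, SE; adjusted p = 0.00491, edgeR) and *Col4a5* at 34.9, 49.2, 4.12 and 7.55 CPM (-2.69 ± 0.33; adjusted p = 0.00666, edgeR). Without LI replicate 1 these log2 fold changes were -3.91 and -2.90, and both calls were kept in all 12 alternatives. *Col6a4*, a low type VI chain named after its values were seen, was at 8.39, 5.51, 0.935 and 1.52 CPM (-2.28 ± 0.42; adjusted p = 0.0428, edgeR), and its call was lost without LI replicate 1 (adjusted p = 0.135, edgeR), at finer clusters (0.061) and without doublet removal (0.0639). After thinning it did not pass the filter on low counts. *Col6a4* shares exon bases with antisense transcripts whose reads were not separated here.

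**Figure D4:**
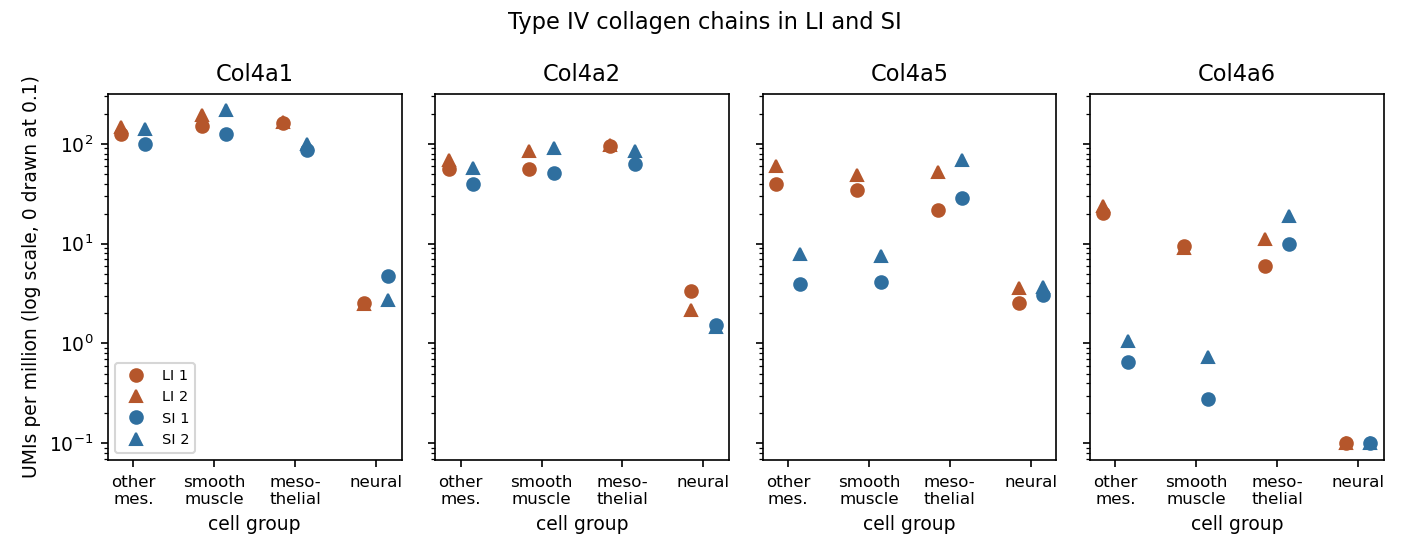
Each panel gives the level of 1 type IV chain in CPM (y axis, log scale, with 0 drawn at 0.1) in the 4 cell groups (x axis) for each library, LI and SI in different colors and replicates 1 and 2 as circles and triangles. For *Col4a5* and *Col4a6* the LI points lie above the SI points in other mesenchyme and smooth muscle cells and among them in mesothelial cells, while *Col4a1* and *Col4a2* overlap between regions in other mesenchyme and smooth muscle cells.

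In mesothelial cells, 0 of 24 tested members were called by edgeR and 0 by DESeq2, against 1.20% of all genes, and 10 had an unadjusted p under 0.05. This count depended on the fit, with 8 members called when low counts were not filtered and 11 when a replicate block was fitted. *Col4a5* was at 21.7, 52.1, 28.9 and 69.5 CPM and *Col4a6* at 6.01, 11.1, 9.95 and 19.1 CPM in these cells, so the regions overlapped, and the log2 fold changes were 0.46 ± 0.42 and 0.80 ± 0.43. In neural cells, 1 of 18 tested members was called, against 0.310% of all genes. This was *Col1a2*, at 21.1, 19.6, 5.43 and 2.02 CPM, with a log2 fold change of -2.53 ± 0.41 (SE, adjusted p = 0.0451, edgeR). After thinning, 5.66, 4.98, 1.57 and 0.70% of neural cells had a *Col1a2* UMI, and 19.1, 23.9, 6.75 and 2.29% did before. As for *Col3a1*, shares of this size may come from free RNA, whose part was not tested. The call was lost without SI replicate 2 (log2 fold change -1.93), without the removal of doublets (-1.09; adjusted p = 0.227, edgeR) and after thinning.

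In other mesenchyme 12 of the 36 members had an unadjusted p under 0.05 between SI and LI. The number called changed when 1 library was left out, in fits where the spread again comes from the region with 2 libraries alone. It was 10 without LI replicate 2, 9 without SI replicate 1 and 6 without LI replicate 1. In smooth muscle cells, leaving out LI replicate 2 gave 9 calls and leaving out SI replicate 1 gave 6. In mesothelial cells, leaving out LI replicate 2, SI replicate 1 or LI replicate 1 gave 9, 4 and 1. In neural cells it was 3 without LI replicate 1, 6 without LI replicate 2, 3 without SI replicate 1 and 0 without SI replicate 2. *Col23a1*, lower in both SI libraries, was the uncalled member nearest to the threshold in other mesenchyme (-0.73 ± 0.15, log2 and SE; adjusted p = 0.0554, edgeR) and had -1.42 ± 0.31 in mesothelial cells (adjusted p = 0.0501, edgeR). *Col9a2* had -0.70 in other mesenchyme (adjusted p = 0.0902, edgeR), and both were named after their values were seen. *Col6a1*, which was higher in both SI libraries than in both LI libraries in other mesenchyme, had a log2 fold change of 1.39 ± 0.34 (adjusted p = 0.0883, edgeR), *Col6a2* had 1.14 ± 0.39 and *Col1a1* 0.99 ± 0.36 (adjusted p 0.194 and 0.223). With DESeq2 all 3 were past the threshold (adjusted p 0.000397, 0.0222 and 0.037), as they were with a replicate block (0.0016, 0.00847 and 0.00365) and without LI replicate 2 or SI replicate 1. *Col6a1* was also called without LI replicate 1 (0.029), and none of the 3 without SI replicate 2. *Acta2* was likewise higher in both SI libraries of other mesenchyme, at 239 and 427 CPM in LI and 667 and 1135 CPM in SI, and its part in these values was not tested.

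Whether the regional difference itself depended on the cell group was tested with an interaction term, which takes the SI over LI difference (log2) in mesothelial cells minus that in other mesenchyme. Of 35 tested members, 8 had a called positive and 2 a called negative interaction, against 4.67% of all genes called. Among the called members the largest were *Col4a6* (5.34 ± 0.39, SE, adjusted p = 1.33e-09, edgeR) and *Col4a5* (3.41 ± 0.22, adjusted p = 2.04e-10, edgeR). Both were lower in SI in other mesenchyme and overlapped between regions in mesothelial cells. The type I chains went in opposite directions, with *Col1a2* at 1.40 ± 0.12 (adjusted p = 3.44e-08, edgeR) and *Col1a1* at -0.39 ± 0.11 (adjusted p = 0.0433, edgeR). *Col1a2* was at 123, 258, 322 and 439.7 CPM in mesothelial cells, where both SI libraries were higher, but overlapped between regions in other mesenchyme. *Col9a2* (1.38 ± 0.18), *Col12a1* (1.35 ± 0.21), *Col18a1* (1.22 ± 0.20) and *Col11a1* (1.22 ± 0.18) also had positive interactions, and *Col4a1* a negative one (-0.73 ± 0.14; adjusted p = 0.00233, edgeR). *Col4a1* was at 163, 166, 86.8 and 100.04 CPM in mesothelial cells, lower in both SI libraries. *Col18a1*, for instance, was higher in SI than in LI in mesothelial cells and lower in SI in other mesenchyme, in each case without overlap. Its interaction was not past the threshold with DESeq2 (adjusted p = 0.34). *Col3a1* (0.35 ± 0.10) and *Col1a1* were called in 8 and 4 of 13 alternatives, and both calls were lost without LI replicate 1 (adjusted p 0.0727 and 0.376, edgeR) and without SI replicate 1 (0.492 and 0.0707). The *Col1a1* call was also lost without LI replicate 2 (adjusted p = 0.166, edgeR) and without SI replicate 2 (0.169).

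**Figure D5:**
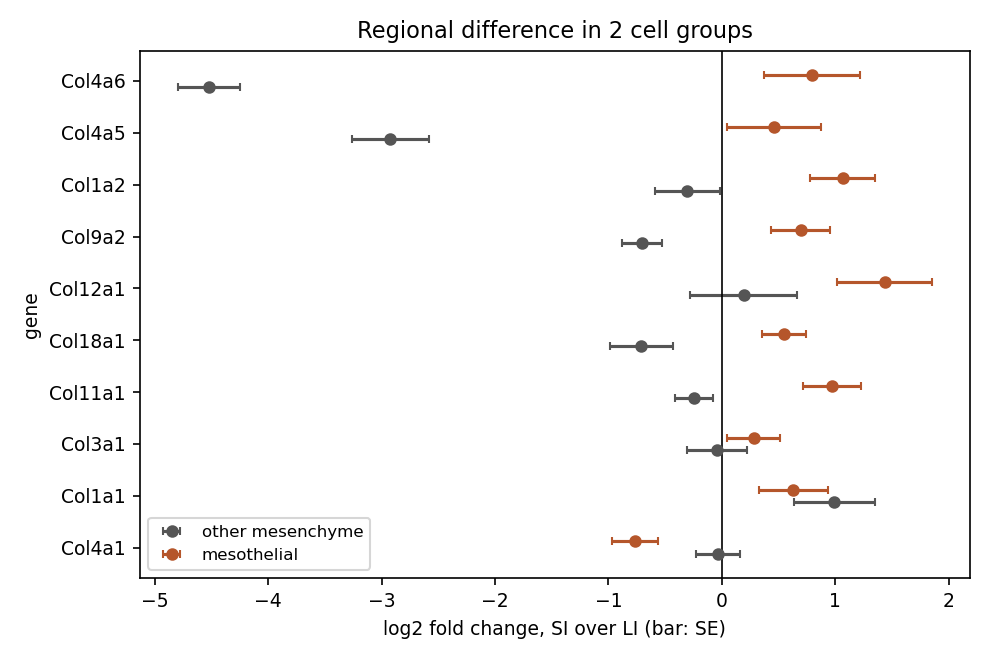
For the 10 members with a called interaction (y axis), points give the SI over LI log2 fold change (x axis, bars are SE) in other mesenchyme and in mesothelial cells, each from its own fit. *Col4a6* and *Col4a5* lie at -4.52 and -2.92 in other mesenchyme and at 0.80 and 0.46 in mesothelial cells.

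Between smooth muscle cells and other mesenchyme the regional difference was unequal for 2 of 35 members, against 1.00% of all genes. *Col14a1* had an interaction of -1.87 ± 0.24 (SE; adjusted p = 0.00384, edgeR) and was at 26.7, 31.6, 13.6 and 15.3 CPM in smooth muscle cells, lower in both SI libraries, while it was highest in SI replicate 2 in other mesenchyme. Without LI replicate 1 the value was -1.94. *Col6a4* had -2.45 ± 0.50 (adjusted p = 0.0437, edgeR), which was -0.09 when clusters with a marker of another cell type were left out of other mesenchyme, and whose call was lost without SI replicate 2 (adjusted p = 0.286, edgeR) and with DESeq2 (adjusted p = 0.134). For *Col4a5* and *Col4a6* the interaction was 0.24 ± 0.15 and 0.58 ± 0.44, neither past the threshold.

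The genes that make, process, bind and degrade collagen were followed as 4 lists. In mesothelial cells relative to other mesenchyme, 14 of 18 tested genes of collagen biosynthesis and folding rose and 1 fell (83.3% called against 40.5% of all genes, median log2 fold change 0.63 against -0.03). These included *P3h4* (2.87 ± 0.08, log2 and SE), a partner of the prolyl 3-hydroxylases, the lysyl hydroxylases *Plod2* (1.97 ± 0.11) and *Plod1* (0.84 ± 0.15), *P3h1* (1.06 ± 0.14) and *Creb3l1* (1.72 ± 0.21), a transcription factor of procollagen secretion, while *P3h2* fell by 1.56 ± 0.38. In the next lists the share called was close to that of all genes, at 40% for processing, 40% for receptors and 50% for breakdown. Of 10 tested genes of procollagen processing and cross-linking, 4 rose, among them the lysyl oxidases *Lox* (2.28 ± 0.36) and *Loxl2* (1.37 ± 0.29) and the procollagen C-proteinase enhancer *Pcolce* (1.20 ± 0.30). Of 5 tested receptors, the discoidin domain receptors *Ddr1* (1.85 ± 0.11) and *Ddr2* (1.21 ± 0.18) rose. Of 8 tested genes of breakdown and its inhibitors, the inhibitors *Timp3* (1.17 ± 0.29) and *Timp2* (0.43 ± 0.10) rose and the proteases *Ctsk* (-3.36 ± 0.76) and *Mmp2* (-1.33 ± 0.14) fell.

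In smooth muscle cells, 2 of 18 genes of biosynthesis, 3 of 10 of processing and 2 of 8 of breakdown fell and none rose (11.1, 30 and 25% called, against 7.95% of all genes), the largest change being in the procollagen N-proteinase *Adamts2* (-2.35 ± 0.42, log2 and SE), and 0 of 5 receptors were called, with 1 at an unadjusted p under 0.05. In neural cells, 15 of 18 genes of biosynthesis and 9 of 10 of processing fell (88.9 and 90% called in either direction, against 57.9% of all genes), with *P4ha3*, a prolyl 4-hydroxylase subunit, at -4.76 ± 0.52 and *Loxl1* at -4.81 ± 0.46. *Ddr2* fell by 6.30 ± 0.43 in neural cells, whereas *Ddr1* rose by 0.68 ± 0.11, and of 5 tested receptors 3 fell and 1 rose (80% called, median log2 fold change -2.82). All 8 tested genes of breakdown and its inhibitors were called, 6 lower and 2 higher (median -1.18), among them the protease *Mmp2* (-4.21 ± 0.17), the inhibitor *Timp1* (-1.76 ± 0.24) and the membrane protease *Mmp15*, which rose by 2.25 ± 0.20.

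Between SI and LI, with 3 to 19 genes tested per list, edgeR called 0 genes of the 4 lists in other mesenchyme, smooth muscle and neural cells (3.19, 1.46 and 0.310% of all genes were called). In mesothelial cells it called 1 of 7 genes of breakdown (14.3%, against 1.20% of all genes) and 0 in the other lists. This was *Timp3*, which was lower in SI by a log2 fold change of -1.52 ± 0.22 (adjusted p = 0.00647). At an unadjusted p under 0.05 stood 0 to 5 genes of a list in other mesenchyme, 0 to 3 in smooth muscle, 0 to 7 in mesothelial and 0 to 2 in neural cells. In the interaction between region and mesothelial cells, 1 of 18 genes of biosynthesis (*P3h2*, -2.83 ± 0.56, log2 and SE), 1 of 10 of processing (*Pcolce*, 1.08 ± 0.20), 1 of 8 of breakdown (*Timp3*, -1.67 ± 0.15) and 0 of 7 receptors were called (against 4.67% of all genes), and 2 receptors had an unadjusted p under 0.05. In that between region and smooth muscle cells it was 0 of the 4 lists, with 0 to 4 genes of a list at an unadjusted p under 0.05, against 1.00% of all genes called.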

How the data were processed

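Per the labels and the methods of the study, the authors aligned the libraries with Cell Ranger 3.1.0 to mm10 and deposited 1 matrix of raw UMI counts per library. Chemistry was 3′ or 5′, and which library used which is not given in the sources used here, so a chemistry difference cannot be told apart from a library difference. Barcodes with at least 1000 genes and at most 10% mitochondrial UMIs were kept, and doublets were removed with Scrublet scores at 0.8% per 1000 cells (183 to 348 per library). Cells were clustered with Seurat 5.3.0 at resolution 0.3 on 1974 variable genes. Clusters were named from marker lists, and cells of clusters not called mesothelial, neural or smooth muscle formed other mesenchyme. UMIs were summed per library and cell group and tested with edgeR 4.0.16 (TMM, quasi-likelihood, Benjamini-Hochberg over all genes that passed filterByExpr), with library as a block between cell groups. CPM are UMIs per 1000000 of the group sum, and folds come from the fit. UMI totals set the depth, and Wilson intervals and floors cover counting error only. Libraries are pools of embryos, and whether an LI and an SI library share embryos is not given in the sources used here. Between regions, p-values measure the spread between the libraries of a region. Between cell groups and in interactions, where library is a block, they measure the spread of the differences within libraries. The genes and lists were chosen with earlier results of these data known. Members at 20 CPM or more in a group were named, with folds for up to 10 called members per comparison and for *Col1a1*, *Col1a2*, *Col3a1*, *Col4a1*, *Col4a2*, *Col6a1* and *Col6a2*. Alternatives were DESeq2 1.42.0, other filters, thinning, clusterings and left-out libraries. Scripts that test across genes were tested on simulated data.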

Additional observations from a re-analysis of the deposited data

Results flagged for a closer look

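The results listed here were singled out because the difference between SI and LI in 1 cell group was itself different from that in other mesenchyme by an interaction test (edgeR, adjusted p under 0.05). For mesothelial cells minus other mesenchyme the log2 differences were 5.34 for *Col4a6*, 3.41 for *Col4a5*, 1.40 for *Col1a2*, 1.38 for *Col9a2*, 1.35 for *Col12a1*, 1.22 for *Col18a1*, 1.22 for *Col11a1*, 0.35 for *Col3a1*, -0.39 for *Col1a1* and -0.73 for *Col4a1*. For smooth muscle cells minus other mesenchyme they were -1.87 for *Col14a1* and -2.45 for *Col6a4*. The *Col3a1*, *Col1a1*, *Col18a1* and *Col6a4* values did not pass the threshold under every alternative, and the causes of these differences were not tested.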

How the results depend on the processing

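Of the numbers of members called, those for mesothelial and neural cells against other mesenchyme and for the mesothelial interaction stayed within 1.5 times of the reported counts under all alternatives, and the others moved. For SI against LI the reported counts were 2 in other mesenchyme, 3 in smooth muscle, 0 in mesothelial and 1 in neural cells. Without a filter on low counts they were 11, 10, 8 and 4. The replicate numbers are not tied to a shared day or pool by the labels, and the main fits between regions did not pair them. Deviations of same-numbered libraries from their region means correlated at 0.231 to 0.412. *Xist* was at 256 and 260 CPM in replicate 1 of LI and SI, and at 828 and 565 CPM in replicate 2. *Ddx3y* was at 58.4 and 55.3 CPM in replicate 1, and at 39.6 and 44.9 CPM in replicate 2. A replicate block in the fit gave counts of 10, 13, 11 and 4 for the groups in the same order. Other mesenchyme gave 8 with DESeq2 and 4 without clusters that carry another type's marker, mesothelial cells gave 1 after thinning, and neural cells 0 after thinning and 0 without doublet removal. Leaving out 1 library gave 2 to 10, 2 to 9, 0 to 9 and 0 to 6. Smooth muscle cells against other mesenchyme (3 called) gave 1 with DESeq2, 1 without the library block, 7 after thinning, 7 without doublet removal, 8 at finer clusters, 6 without the filter, 11 without the marker-bearing clusters and 1 to 5 with 1 library left out. The smooth muscle interaction (2 called) gave 1 with DESeq2, 1 after thinning, 1 with the members among the clustering genes, 1 without the marker-bearing clusters, 5 without the filter and 2 to 8 with 1 library left out.

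Changes of sign fell on log2 fold changes that were not called. For SI against LI with 1 library left out, other mesenchyme gave -0.65 to 0.10 for *Col1a2*, -0.39 to 0.25 for *Col3a1*, -0.27 to 0.17 for *Col4a1* and -0.48 to 0.0195 for *Col4a2*. Smooth muscle cells gave -0.0254 to 1.56 for *Col1a1*, -0.42 to 0.021 for *Col1a2*, -0.48 to 0.0261 for *Col3a1*, -0.35 to 0.48 for *Col4a1* and -0.32 to 0.53 for *Col4a2*. Mesothelial cells gave -0.0172 to 0.66 for *Col3a1* and -0.25 to 1.15 for *Col4a5*, and neural cells -0.049 to 0.35 for *Col3a1*. *Col4a1* in mesothelial cells against other mesenchyme gave -0.12 to 0.19. The mesothelial interaction gave -0.21 to 0.0405 for *Col4a2* and -0.42 to 0.28 for *Col6a2*, and the smooth muscle interaction -0.57 to 0.0366 for *Col1a1*, -0.18 to 0.46 for *Col1a2*, -0.0612 to 0.32 for *Col4a1* and -0.23 to 0.0606 for *Col6a2*. Under other settings, *Col4a1* in other mesenchyme gave 0.10 with equal cells of each cluster and 0.0699 without clusters 9 and 10 (chosen after seeing the data), *Col4a2* in neural cells 0.12 without doublet removal, *Col4a1* in mesothelial cells against other mesenchyme -0.0245 without the filter, and *Col6a2* 0.23 and 0.17 in the mesothelial and smooth muscle interactions without the marker-bearing clusters. The causes of these shifts were not tested, and 2 libraries per region and 171 to 636 mesothelial cells per library limit the precision.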
